A study of Homo sapiens with 3 samples.

Results

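FOXA2 sites lay in dense groups or long runs in 5 stretches of chromosomes 1 and 2, which were examined, together with the 6 genes named for them: IRF2BP2, RND3, ZFP36L2, THADA, CD28 and FN1. The stretches were chosen by the number and closeness of FOXA2 sites in these same libraries, so their site counts, densities and run lengths are given as descriptions, without tests. They span 2.25 Mb of the hg19 build and hold 230 of 63949 replicate 1 peaks, 125 of 26907 replicate 2 peaks and 113 of the 24345 sites found in both. The data are the peak lists of a FOXA2 ChIP-seq experiment in untreated Caco2 cells, an established line from a colorectal adenocarcinoma that serves as a model for epithelial cells of the gut. There were 2 replicate immunoprecipitations with a FOXA2 antibody (Santa-Cruz sc-6554), and the peaks of each were called against 1 input library made without antibody, whose own values were not analysed here. Nothing in the labels says that the replicates came from separate cultures, so the spread between them may be technical.

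FOXA2 is a forkhead transcription factor that binds DNA through a winged-helix domain and can bind its sites in compacted chromatin. It acts in the endoderm and in organs that derive from it, the gut among them. Transcription factors often bind several sites close together, and groups of such sites are found at many enhancers. A ChIP-seq peak shows where the factor was recovered with DNA, not whether a nearby gene responds to it, and no expression data were part of the analysis.

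The 6 genes differ widely in function. IRF2BP2 is a nuclear cofactor that binds interferon regulatory factor 2 and represses transcription. RND3 is a small GTPase that stays bound to GTP and loosens actin stress fibres. ZFP36L2 is a zinc finger protein that binds AU-rich elements in messenger RNA and promotes their decay, and THADA was named for its rearrangement in thyroid adenomas. CD28 is the costimulatory receptor of T cells. FN1 encodes fibronectin, a glycoprotein of the extracellular matrix and of plasma.

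All positions of peaks below are on hg19. The gene table used is on GRCh38.p14, so the place of each gene body within its stretch was not used here, and no distance from a peak to a gene is given. From that table come only the order and strand of the genes. In it, ZFP36L2 and THADA are neighbouring coding genes, followed by PLEKHH2. FN1 lies on the minus strand with ATIC before it and MREG as the next coding gene after it. The gap between FN1 and MREG, which makes up part of the FN1 stretch, is therefore on the side of the FN1 start. RND3 lies between the coding genes MMADHC and RBM43, CD28 between RAPH1 and CTLA4, and IRF2BP2 between TARBP1 and TOMM20.

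The sequences around the gene starts were searched for the forkhead letters TGTTTAC and TATTTAC on both strands, in the window from 250 bases before to 50 bases after each start listed in RefSeq (GRCh38.p14). Windows were listed for 5 of the 6 genes, not for ZFP36L2, with 2 starts each for IRF2BP2 and RND3. The 2 windows of RND3 overlap over most of their length. None of these 7 windows held either motif, which 5.97% of all 35116 such windows do (TGTTTAC 3.42%, TATTTAC 2.67%). This says only that these letters are not in these windows. Of the 3 windows of MREG, which bounds the FN1 stretch, 1 held TGTTTAC. The windows of CD28 and FN1 are shown because these genes name the stretch with the highest-scoring site and the stretch with the longest run on chromosome 2. That of CD28 (GRCh38.p14, chr2:203706389-203706688, plus strand) is 48.3% G and C, and that of FN1 (GRCh38.p14, chr2:215436019-215436318, minus strand) is 76.7%. No letters are in capitals, since no motif was found.
CD28: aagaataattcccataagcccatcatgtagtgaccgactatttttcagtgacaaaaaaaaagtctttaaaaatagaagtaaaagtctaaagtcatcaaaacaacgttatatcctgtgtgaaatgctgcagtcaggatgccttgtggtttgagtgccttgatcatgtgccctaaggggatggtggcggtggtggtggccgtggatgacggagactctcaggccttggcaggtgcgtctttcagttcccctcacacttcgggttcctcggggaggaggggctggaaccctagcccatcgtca
FN1: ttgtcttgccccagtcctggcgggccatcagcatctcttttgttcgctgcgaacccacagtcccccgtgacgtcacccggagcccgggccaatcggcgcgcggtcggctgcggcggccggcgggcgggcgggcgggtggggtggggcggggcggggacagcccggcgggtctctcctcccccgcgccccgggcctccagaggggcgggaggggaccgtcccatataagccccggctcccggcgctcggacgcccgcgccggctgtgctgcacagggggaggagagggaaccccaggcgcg

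The score of a peak, as deposited by the authors, is its tag count at a common depth of 10000000 tags, rounded, and its unit is written as normalised tags. Replicate 1 had 26183147 tags and replicate 2 had 15756702, so 1 unit of score is worth 2.62 tags in the first library and 1.58 in the second. Sites are called shared where peaks of both replicates overlap by at least 1 bp, and are given at their replicate 1 position. A shared site is called strong if it scored at least 50 in both replicates. A run is a row of shared sites whose neighbouring midpoints lie no more than 10 kb apart.

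Shared sites were 5.87 times as dense in the 5 stretches, with 50.2 per Mb, as in the rest of the occupied genome, with 8.56 per Mb. The CD28 stretch was the densest of the 5 by shared sites, with 13 in 154 kb or 84.4 per Mb. That is 9.86 times the rest, but with the replicate 1 list alone it was 5.77 times, below the 5.92 times of the IRF2BP2 stretch. The IRF2BP2 stretch had 14 in 240 kb (58.3 per Mb), the RND3 stretch 26 in 500 kb (52.0 per Mb), the ZFP36L2 and THADA stretch 33 in 724 kb (45.6 per Mb) and the FN1 stretch 27 in 632 kb (42.7 per Mb). At their full length they were not the densest of the genome. When the chromosomes were tiled into windows of the same length, and those with a peak of either replicate and no overlap with the 5 stretches were kept, 10 of 14258 windows held at least as many sites as the CD28 stretch, and 43 of 10089 as many as the IRF2BP2 stretch. For RND3 it was 9 of 5396, for ZFP36L2 and THADA 7 of 3840 and for FN1 11 of 4363. These densities are not corrected for copy number, which was not measured here.

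**Figure D1:**
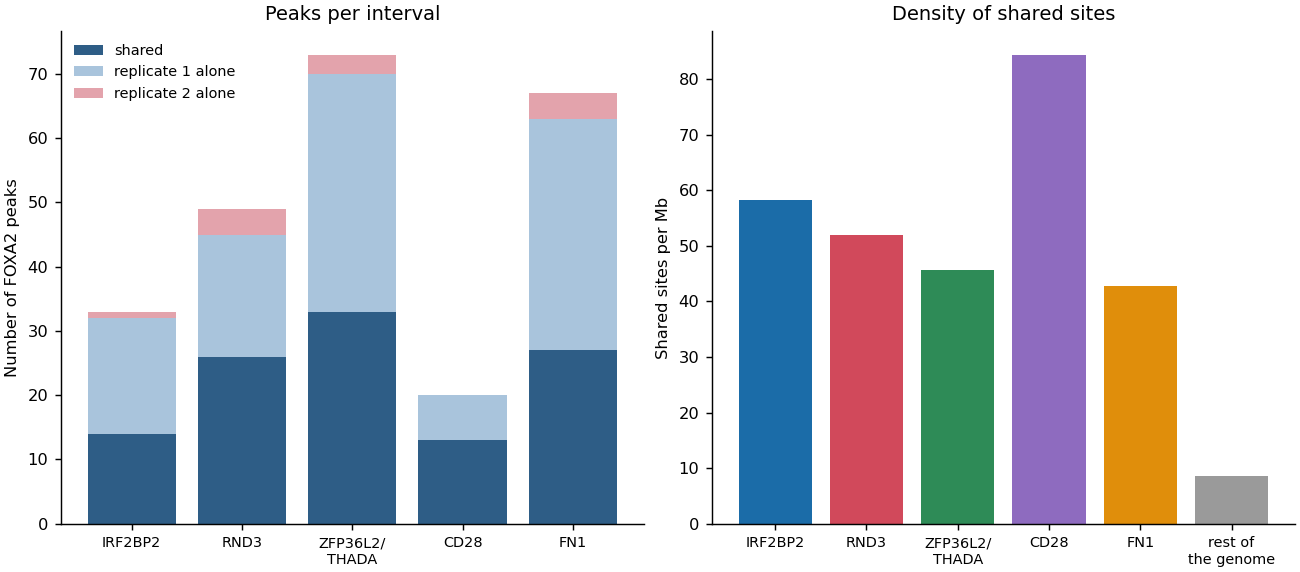
Left, number of FOXA2 peaks in each stretch, split into sites shared by the replicates and peaks of a single replicate. Right, shared sites per Mb in each stretch and in the rest of the occupied genome; CD28 is highest with 84.4 per Mb and the rest of the genome has 8.56.

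Closeness of sites differed between the stretches as well. Of the 113 shared sites, 93 had another within 10 kb, or 82.3%, against 39.0% of all shared sites, and 35 belonged to runs of 5 or more, or 31.0%, against 2.25% of all. Both shares were part of the choice of the stretches and are given for size alone. Each stretch held 1 run of 5 or more, out of 99 in the genome. The lengths were 9 sites for IRF2BP2, 8 for FN1, 7 for CD28, 6 for RND3 and 5 for ZFP36L2 and THADA. Of the genome's 99 runs, 13 had 7 or more sites and 32 had 6 or more. This order of the stretches holds for shared sites of any score, with the 10 kb limit and overlap of 1 bp. With 20 kb allowed, RND3 had 15 sites and ZFP36L2 and THADA 12, against 10 for FN1, 9 for IRF2BP2 and 8 for CD28. With a reciprocal overlap of 50%, FN1 had 8 sites, CD28 7, IRF2BP2 and RND3 6 each, and ZFP36L2 and THADA 4. Among peaks that scored at least 10, CD28 had 7 and FN1 had 5, as did ZFP36L2 and THADA, while IRF2BP2 and RND3 had 4 each. Counted in 100 kb instead, RND3 and the pair ZFP36L2 and THADA had the most sites. The RND3 stretch held 15 shared sites between 150987215 and 151086788, the most in any 100 kb that starts at a shared site, which 1 of 24345 sites did (0.00411%); the highest number elsewhere was 14, on chromosome 11. ZFP36L2 and THADA had 13 within 83.3 kb, FN1 12 within 96.4 kb, and IRF2BP2 and CD28 11 each within 75.8 kb and 99.2 kb. Of all shared sites, 0.279% opened a 100 kb window with 11 or more.

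**Figure D2:**
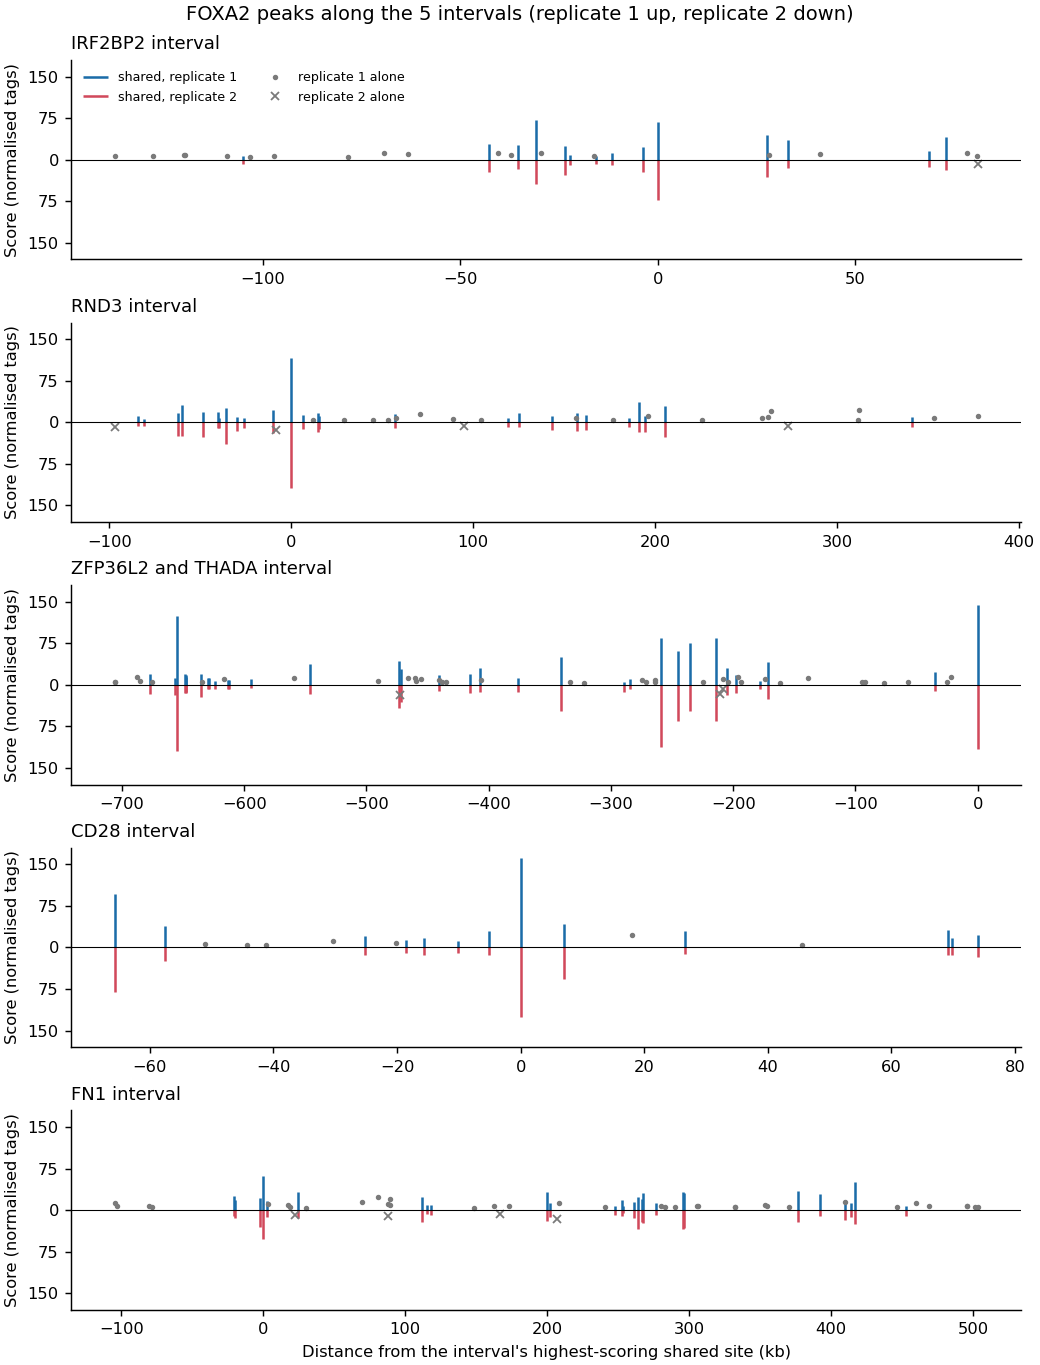
Scores of the FOXA2 peaks along each stretch, by distance in kb from its highest-scoring shared site. Lines are shared sites, with the replicate 1 score above the axis and the replicate 2 score below it; dots and crosses are peaks of a single replicate. RND3 has 1 dominant site and CD28 has 2 strong sites, while the ZFP36L2 and THADA stretch has strong sites at both ends and a group between them.

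The IRF2BP2 stretch, on chromosome 1, held the longest of these runs at the 10 kb limit, an overlap of 1 bp and no score limit. The run had 9 shared sites over 42.7 kb from 234736451 to 234779180. The last site of the run, at 234779058 to 234779180, scored 68 in replicate 1 and 72 in replicate 2 and was the highest of the stretch (70 ± 2.83, mean ± SD, n = 2). The site at 234748321 to 234748443 scored 71 and 43 (57 ± 19.8), and the first site of the run, at 234736451 to 234736573, scored 29 and 22. The replicates were close at the last site and far apart at the middle one. Mean scores in the run ranged from 7.5 to 70, with a median of 23. Beyond the run, a pair of sites at 234806804 and 234812119 scored 44 and 35 in replicate 1 and 32 and 15 in replicate 2. The 62.4 kb before the run held no shared site other than the one at its edge, at 234674039, but 5 peaks of replicate 1 alone. Within the run lay 4 further peaks of replicate 1 alone.

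The RND3 stretch held the most shared sites in 100 kb, and 1 of its 26 sites was strong. The site at 151071271 to 151071393 scored 116 in replicate 1 and 119 in replicate 2 (117.5 ± 2.12, n = 2), and 0.574% of replicate 1 peaks and 0.751% of replicate 2 peaks scored as high. It carried 23.2% of the summed mean score of the 26 sites. The next was the site at 151035297 to 151035419, with 26 and 39 (32.5 ± 9.19), followed by those at 151011037 and 151276536, both with a mean of 28. The RND3 stretch had the lowest median mean score of the 5, 13.5. Its longest run had 6 sites over 22.7 kb from 151022890 to 151045566, with mean scores from 8.5 to 32.5, and no single-replicate peak lay among them. Its first site scored 19 in replicate 1 and 27 in replicate 2, and its last, at 151045444, scored 7 and 10. The run did not include the strongest site, because gaps of more than 10 kb separate them. Toward higher coordinates, 136 kb without a shared site ran from 151276658 to 151412691, with 6 peaks of replicate 1 alone and 1 of replicate 2 alone.

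ZFP36L2 and THADA shared the longest stretch, with the most strong sites. They were 5 of its 33 sites, out of 10 among all 113 (8.85%), and 5.88% of shared sites genome-wide were strong. The highest was the site at 43861840 to 43861962, with 144 in replicate 1 and 116 in replicate 2 (130 ± 19.8, n = 2). It stood alone, 34.9 kb from the next shared site. The site at 43206843 to 43206965 scored 125 and 119 (122 ± 4.24) and belonged to a run of 5 sites within 8.78 kb, from 43205618 to 43214401, whose other members had mean scores from 14 to 16.5. The first of them, at 43205618, scored 13 and 19, and the last, at 43214279, scored 14 in both replicates. A looser group lay between 43603103 and 43647590. Its sites scored 84, 62, 76 and 84 in replicate 1 and 113, 66, 48 and 65 in replicate 2. The stretch thus held a dense group with 1 strong site, and a sparser group in which 3 of 4 sites were strong. To reach 50% of its summed mean score, 6 of 33 sites were needed. Between 43690593 and 43826966, 136 kb held no shared site, but 6 peaks of replicate 1 alone.

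The CD28 stretch held the highest-scoring site of the 113. The site at 204578896 to 204579018 scored 161 in replicate 1 and 126 in replicate 2 (143.5 ± 24.7, n = 2), which 0.191% of replicate 1 peaks and 0.628% of replicate 2 peaks reached. It was part of a run of 7 sites over 32.2 kb, from 204553801 to 204585977, that began with a site of 20 and 13 and ended with one of 42 and 57 (49.5 ± 10.6). Another strong site, at 204513188 to 204513310, scored 96 and 81 (88.5 ± 10.6) outside the run. The top site carried 30.8% of the summed mean score of the stretch, and the top 3 sites carried over 50% of it. Every one of the 13 replicate 2 peaks here overlapped a replicate 1 peak (95% Wilson interval 77.2% to 100%). The interval includes the 90.5% of all replicate 2 peaks that did so. Near the high bound, 3 sites followed each other at 204648027, 204648716 and 204652866, with 31, 18 and 22 in replicate 1 and 14, 13 and 18 in replicate 2.

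The FN1 stretch held a long run without a strong site. The run of the RND3 stretch had none either, and 5.88% of shared sites genome-wide were strong. Its run of 8 sites covered 28.8 kb from 216529731 to 216558517, with mean scores from 6.5 to 28.5. Their median was 14, close to the 14.5 of shared sites outside the 5 stretches. The first site of the run scored 7 in replicate 1 and 8 in replicate 2, and the last 13 and 8. None of the run's sites was among the 3 highest of the stretch. Those were the site at 216282147 to 216282269, with 62 and 53 (57.5 ± 6.36, n = 2), the site at 216698661 to 216698783, with 51 and 26 (38.5 ± 17.7), and the site at 216577686 to 216577808, with 33 and 34 (33.5 ± 0.707). The top site carried 10.3% of the summed mean score, the lowest share of the 5 stretches, and 9 of 27 sites were needed to reach 50% of it. The median distance to the nearest other shared site was also the smallest here, 2.44 kb. It was 4.31 kb for IRF2BP2, 4.5 kb for RND3, 5.04 kb for CD28 and 6.96 kb for ZFP36L2 and THADA. By shared sites per Mb, however, the FN1 stretch was the least dense of the 5, with 42.7. Toward lower coordinates, 520 kb without a shared site preceded the first one, at 216261408, and 4.38% of all gaps between neighbouring shared sites were at least as long.

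The bounds of the stretches did not all fall in gaps. At the low bound of the RND3 stretch, a site with 12 in replicate 1 and 7 in replicate 2 lay 37.3 kb inside, while one with 79 and 43 lay 4.81 kb outside. At the high bound of the CD28 stretch, a site with 22 and 18 lay 1.07 kb inside and one with 9 and 9 lay 1.64 kb outside. At the low bound of CD28, the strong site with 96 and 81 lay 13.2 kb inside and one with 16 and 25 lay 4.05 kb outside. The IRF2BP2 stretch had a site of 26 and 23 at 13.0 kb outside its low bound and one of 8 and 8 at 7.13 kb outside its high bound. For ZFP36L2 and THADA, a site of 34 and 28 lay 7.92 kb below the low bound, and the next above the high bound lay 162 kb away, with 7 and 9. The next shared sites outside the FN1 stretch were at 433 kb, with 16 and 10, and at 31.9 kb, with 29 and 11.

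Scores of shared sites in the stretches lay close to those elsewhere. In replicate 1 the median was 19 (interquartile range 12 to 31) in the stretches and 16 (10 to 28) at the 24232 other shared sites. In replicate 2 it was 14 (11 to 25) in the stretches and 12.5 (8 to 22) elsewhere. The ranges overlap widely, and sites of 2 libraries are not independent replicates, so no test was made. By stretch, the median of the mean score was 24 for IRF2BP2, 20 for CD28, 18.5 for FN1, 17 for ZFP36L2 and THADA and 13.5 for RND3. RND3 therefore lay below the median of 14.5 of the other shared sites, and the other 4 lay above it.

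**Figure D3:**
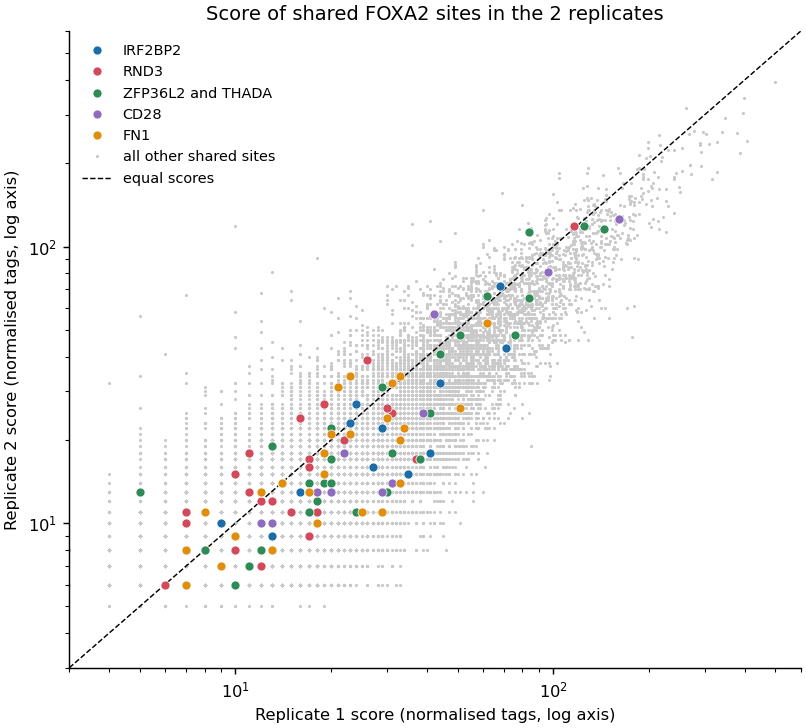
Score of each shared site in replicate 1 (x) and replicate 2 (y), both in normalised tags on log axes. Coloured points are the 113 sites of the 5 stretches and grey points the 24232 others; the coloured points lie within the cloud of the others, from 5 to 161 in replicate 1.

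Most replicate 2 peaks of the stretches had a counterpart. This held for 113 of 125, or 90.4% (95% Wilson interval 84.0% to 94.4%), against 90.5% of all replicate 2 peaks. Seen from replicate 1 it was 113 of 230, or 49.1% (42.7% to 55.6%), against 38.1% of all; this share was in part what the stretches were chosen for. The intervals cover counting error only. The share ranged from 42.9% (31.4% to 55.1%) for FN1 to 65% (43.3% to 81.9%) for CD28, and these intervals overlap. The median distance between the centres of a pair of overlapping peaks was 14 bp in the stretches and 15 bp elsewhere. The widest offset was 129 bp, at 43390054 in the ZFP36L2 and THADA stretch.

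The balance of the 2 replicates was not the same in every stretch. The median ratio of replicate 1 to replicate 2 score was 1.18 over the 113 sites, a log2 ratio of 0.23 with an SD of 0.53 between sites, and 1.20 at the other shared sites (log2 0.26, SD 0.62). For RND3 it was 1.0, against 1.24 at the other shared sites of chromosome 2. There, 11 of 26 sites scored higher in replicate 2 and 4 scored the same, while over all 5 stretches 35 of 113 scored higher in replicate 2 (31.0%), and 29.7% of all shared sites did so. In the run of 6 sites, 5 scored higher in replicate 2. In the CD28 stretch, 12 of 13 sites scored higher in replicate 1, against 15435 of the 24232 shared sites outside the stretches. Its median ratio was 1.31, against the same 1.24 at the other shared sites of chromosome 2. For IRF2BP2 the median ratio was 1.27, for ZFP36L2 and THADA 1.21 and for FN1 1.17. Sites of a stretch share the same libraries, so these ratios describe the libraries and no test was made.

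The error of each ratio was estimated from the approximate tag counts behind the scores. Ratios above the genome's median by more than 2 counting errors were found at 15 of the 113 sites, or 13.3%, against 11.8% of all shared sites. Ratios below it by as much were found at 12, or 10.6%, against 10.2% of all. Both shares are near the background. By stretch, RND3 had 6 of 26 sites below and 1 above, IRF2BP2 0 of 14 below and 3 above, and CD28 1 of 13 below and 3 above. ZFP36L2 and THADA had 3 of 33 below and 4 above, and FN1 had 2 of 27 below and 4 above. The RND3 sites below included the strongest one, whose log2 ratio of -0.04 has a counting error of 0.13. It is near 0 and counts as below only because the genome's median is higher. At the shared sites outside the stretches the median log2 ratio was 0.26. The largest ratio was 2.64, with 29 in replicate 1 and 11 in replicate 2, and occurred both at 204605431 in the CD28 stretch and at 216673886 in the FN1 stretch. The smallest was 0.385, with 5 and 13, at 43572125 in the ZFP36L2 and THADA stretch.

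**Figure D4:**
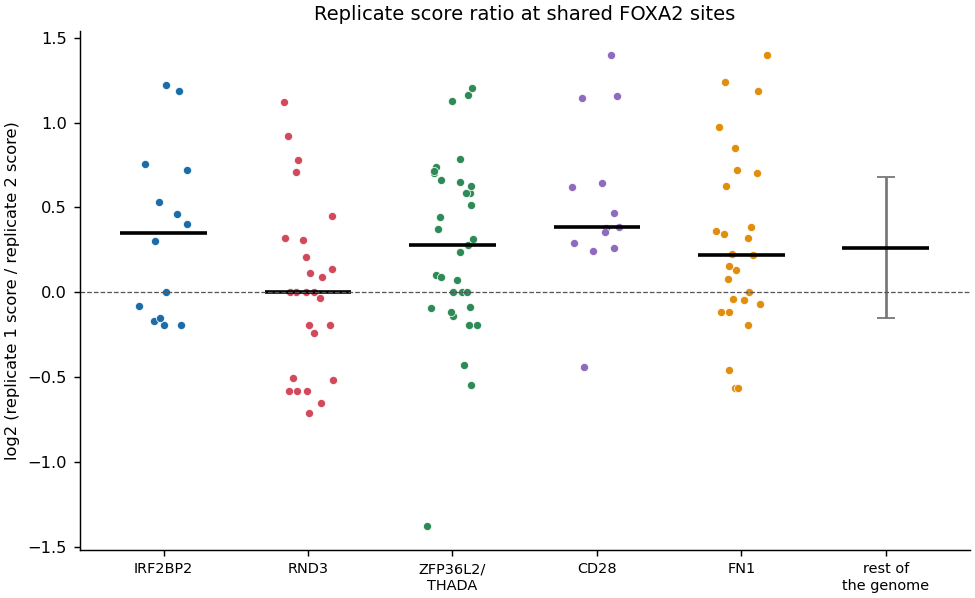
Log2 of the replicate 1 score over the replicate 2 score at each shared site, by stretch, with the median as a black bar; for the rest of the genome the median and the quartiles are drawn. The RND3 median lies at 0, below that of the other stretches and of the rest.

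Peaks found in a single replicate were weak. The 117 peaks of replicate 1 alone had a median score of 7 and reached 24 at most, and the 12 of replicate 2 alone had a median of 8 and reached 19. The highest peak of replicate 2 alone, at 43389294 to 43389444, lay 468 bp from a shared site, between the pair at 43388840 and 43390054. Of the 60 replicate 1 peaks of the stretches that scored at least 20, 5 had no overlapping replicate 2 peak, or 8.33% (95% Wilson interval 3.61% to 18.1%), against 5.36% of all replicate 1 peaks of that score. All 5 scored 20 to 24, a range in which 11.5% of all replicate 1 peaks had none. The 8.33% covers all scores of at least 20, so it is not comparable with that 11.5%. The 5 peaks were those at 151334730 (21) and 151383523 (23) in the RND3 stretch, at 204596971 (23) in the CD28 stretch and at 216363218 (24) and 216371109 (20) in the FN1 stretch. The nearest replicate 2 peak lay between 808 bp and 29174 bp away. The last of the 5 lay 808 bp from a replicate 2 peak with a score of 10 at 216370287, in a group of 5 peaks none of which overlapped across the replicates. Allowing 500 bp between midpoints would add 9 of the 117 peaks of replicate 1 to those with a counterpart.

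Elsewhere in the genome, the runs most like the longest one here, by number of sites, were given by position only. They were 8 sites on chromosome 11 from 113948557 to 113980392, 10 on chromosome 11 from 20016870 to 20053492, and 7 each on chromosome 17 from 48739240 to 48771643, on chromosome 3 from 188000155 to 188023142 and on chromosome 11 from 85491284 to 85525022. Their median mean scores were 35, 21, 50, 24 and 21 in that order. The comparison is across loci of the same libraries. Likeness means the number of sites, and among runs that tied on it those with the higher median mean score were named, so these medians are no base for a comparison with the IRF2BP2 run, whose median was 23.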

How the data were processed

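The deposited score in column 5 of each peak list is HOMER's normalized tag count, rounded to whole numbers, and the peak width is 123 bp (replicate 1) or 151 bp (replicate 2). Per the file headers, the authors called peaks in each replicate separately against the input with HOMER findPeaks, with a 4-fold excess over input. The build is hg19, and the submitters' processing notes name Bowtie 1.0.0 and HOMER 1.2 as tools. Multiplied by the tags per unit, the summed score was 0.45% and 0.196% above the header's tags in peaks. A peak belongs to a stretch by its midpoint. The counting error of a log2 ratio is the Poisson error of the approximate tags. Occupied genome means 1 Mb windows with a peak of either list, 2833 in all. The members, stretches and lists were chosen with earlier results of these data known. Named were the 3 highest sites of each stretch, the ends of its longest run, single-replicate peaks of at least 20 and the 5 most similar runs; other sites were named after their values were seen. Overlap and run finding were tested on simulated data. Python 3.11.15, numpy 2.4.6, pandas 2.3.3 and scipy 1.17.1 were used.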

Additional observations from a re-analysis of the deposited data

How the results depend on the processing

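Of 99 alternatives that kept both replicates, 84 gave values within the limits set (1.5 times for counts, the spread between replicates or intervals otherwise) and 15 moved. With peaks of at least 10 in their own replicate, density over the rest was 15.8 for CD28, 6.22 for FN1, 7.80 for IRF2BP2 and 6.21 for ZFP36L2 and THADA, the longest run was 5 for FN1 and 4 for IRF2BP2, and the median mean score was 21.5. With midpoints within 500 bp, density for IRF2BP2 was 7.72. With sites no more than 5 kb apart the longest run was 3 for CD28, RND3, and ZFP36L2 and THADA, 4 for FN1 and 2 for IRF2BP2; at 20 kb it was 15 for RND3 and 12 for ZFP36L2 and THADA. The order of the stretches by run length changed with the distance limit, the score limit and the replicates used. It also changed with the overlap, where IRF2BP2 had 6 under a reciprocal overlap of 50%. Without replicate 2, FN1 had the longest run, with 16 peaks against 13 for IRF2BP2. Each replicate's list alone gave 13 to 20 peaks for CD28, 31 to 63 for FN1, 15 to 32 for IRF2BP2, 30 to 45 for RND3 and 36 to 70 for ZFP36L2 and THADA, longest runs of 7 to 9, 8 to 16, 9 to 13, 6 and 5 to 8, and densities over the rest of 5.77 to 8.92, 4.43 to 5.18, 5.92 to 6.61, 4.0 to 6.34 and 4.30 to 5.26, the higher counts and lower densities without replicate 2, where CD28 was no longer the densest. Widening the bounds by 50 kb and scores of a single replicate were alternatives chosen after seeing the data. The planned motif search at the sites was not run, since no hg19 genome was used here. No paired analysis was possible because the replicates belong to 1 group. Replicate 2 has fewer tags, and its part in the peaks found in replicate 1 alone was not tested.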
